A study of Mus musculus with 3 samples.

Results

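Iron and heme handling was followed through 7 genes in immune cells of the mouse aorta. The genes were chosen by name, 7 of the 32285 rows of each count matrix, and each symbol matched 1 row. Fth1 and Ftl1 encode the heavy and light subunits of ferritin. Tfrc encodes transferrin receptor 1, and Slc11a1 encodes NRAMP1, a metal transporter of the phagosome. Hmox1 encodes heme oxygenase 1, Blvrb encodes biliverdin reductase B, and Slc40a1 encodes ferroportin. All 3 groups were labelled ApoE-/- mice on C57BL/6J, which lack apolipoprotein E and form atherosclerotic lesions. No group was labelled wild type, but the Apoe counts of 1 library went against its label, as given below. The groups were a control, homocysteine in the drinking water at 1.8 g/L for 4 weeks (HHcy), and a western diet for 4 weeks (WD). Each group was 1 library of sorted living CD45+ cells (leukocytes) from whole aortas with their adventitia, after red cell lysis, so differences between groups have no replicate check and no test was possible. The labels used here give neither the number of animals in a library nor their age.

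Macrophages take up iron bound to transferrin through Tfrc, and heme iron by engulfing aged red cells. Heme oxygenase opens the heme ring and releases iron, carbon monoxide and biliverdin, and biliverdin reductases turn the latter into bilirubin. Free iron is locked in ferritin or leaves through ferroportin, the iron exporter of animal cells. Iron regulatory proteins bind hairpins in the transcripts, named iron-responsive elements. Bound in a 5′ UTR they block translation, and bound in the Tfrc 3′ UTR they protect the transcript from decay, so transcript counts of ferritin and ferroportin do not show the protein that is made. C57BL/6 mice carry a missense allele of Slc11a1 that impairs its protein, and transcript counts do not show this either.

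The hairpin letters are given because 4 of the 7 genes share them and differ in where they lie. The search read the UTRs of 1 GENCODE vM21 transcript per gene, on the transcript strand, for a C, a stem of 5 bases, a loop CAGTGN (not G at the last base), and 5 bases that pair with the stem, G-T pairs allowed. Each sequence is 27 bases with the loop in capitals.
Fth1: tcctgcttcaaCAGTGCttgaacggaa
Ftl1: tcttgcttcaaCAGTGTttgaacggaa
Slc40a1: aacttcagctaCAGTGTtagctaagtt
Tfrc site 1: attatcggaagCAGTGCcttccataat
Tfrc site 2: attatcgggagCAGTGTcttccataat
Tfrc site 3: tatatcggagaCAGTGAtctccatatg
Tfrc site 4: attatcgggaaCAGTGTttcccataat

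On GRCm38 the Fth1 match lay in the 5′ UTR at chr19:9982733-9982759 on the plus strand. The Ftl1 match lay in the 5′ UTR at chr7:45459780-45459806 on the minus strand. The Slc40a1 match lay in the 5′ UTR at chr1:45925466-45925492 on the minus strand. The 4 Tfrc matches lay in its 3′ UTR on the plus strand, at chr16:32631220-32631246, chr16:32631599-32631625, chr16:32631664-32631690 and chr16:32631711-32631737. The storage and export genes thus carried the letters ahead of the coding sequence and the uptake receptor behind it. These letters occurred in the UTRs of 108 of 21509 protein-coding genes (0.502%), in the 5′ UTR of 17 and the 3′ UTR of 91. No match was found in the UTRs of the Hmox1, Slc11a1 and Blvrb transcripts searched, which says only that these letters are not there. A match is a description of letters and not a measured binding site.

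The libraries held 7512, 9753 and 8557 cell barcodes, of which 5405, 6461 and 5370 were used after limits on gene number, mitochondrial share and markers of several lineages. Libraries shared 20 to 24 barcode sequences pairwise. Cells were clustered without the iron genes, and class names stand for clusters that resemble the class in its markers. Values in threes are in the order control, labelled HHcy, WD. Macrophages and monocytes made up 1967, 1225 and 2578 cells, with median depths of 7362, 8363 and 9063.5 UMIs. Apoe went against the label of 1 library. It was at 27.8, 1143 and 24.9 CPM in macrophages and monocytes, and 185 of 1225 cells of the library labelled HHcy held at least 10 Apoe UMIs against 1 and 2 cells in the others. Levels are CPM, the UMIs of a gene per 1000000 UMIs of the class in that library, with exact Poisson 95% intervals in parentheses, which cover counting error only. Barcodes with markers of several lineages were left out and held between 15.4% and 59.0% of a library's UMIs of a member. The share was highest in the library labelled HHcy for all 7 genes.

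Most transcripts of the storage and heme genes came from macrophages and monocytes or from the barcodes left out. Macrophages and monocytes held 46.1%, 20.2% and 43.7% of all Fth1 UMIs of the 3 libraries. They held 57.1%, 25.1% and 46.3% of the Hmox1 UMIs and 61.6%, 33.2% and 48.1% of the Slc11a1 UMIs. Transferrin receptor and ferroportin were spread differently. B cells held 36.4%, 29.3% and 13.5% of the Tfrc UMIs, against 17.8%, 10.1% and 25% in macrophages and monocytes. Neutrophils, 209, 443 and 294 cells, held 30.8%, 29.5% and 25.1% of the Slc40a1 UMIs.

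**Figure D1:**
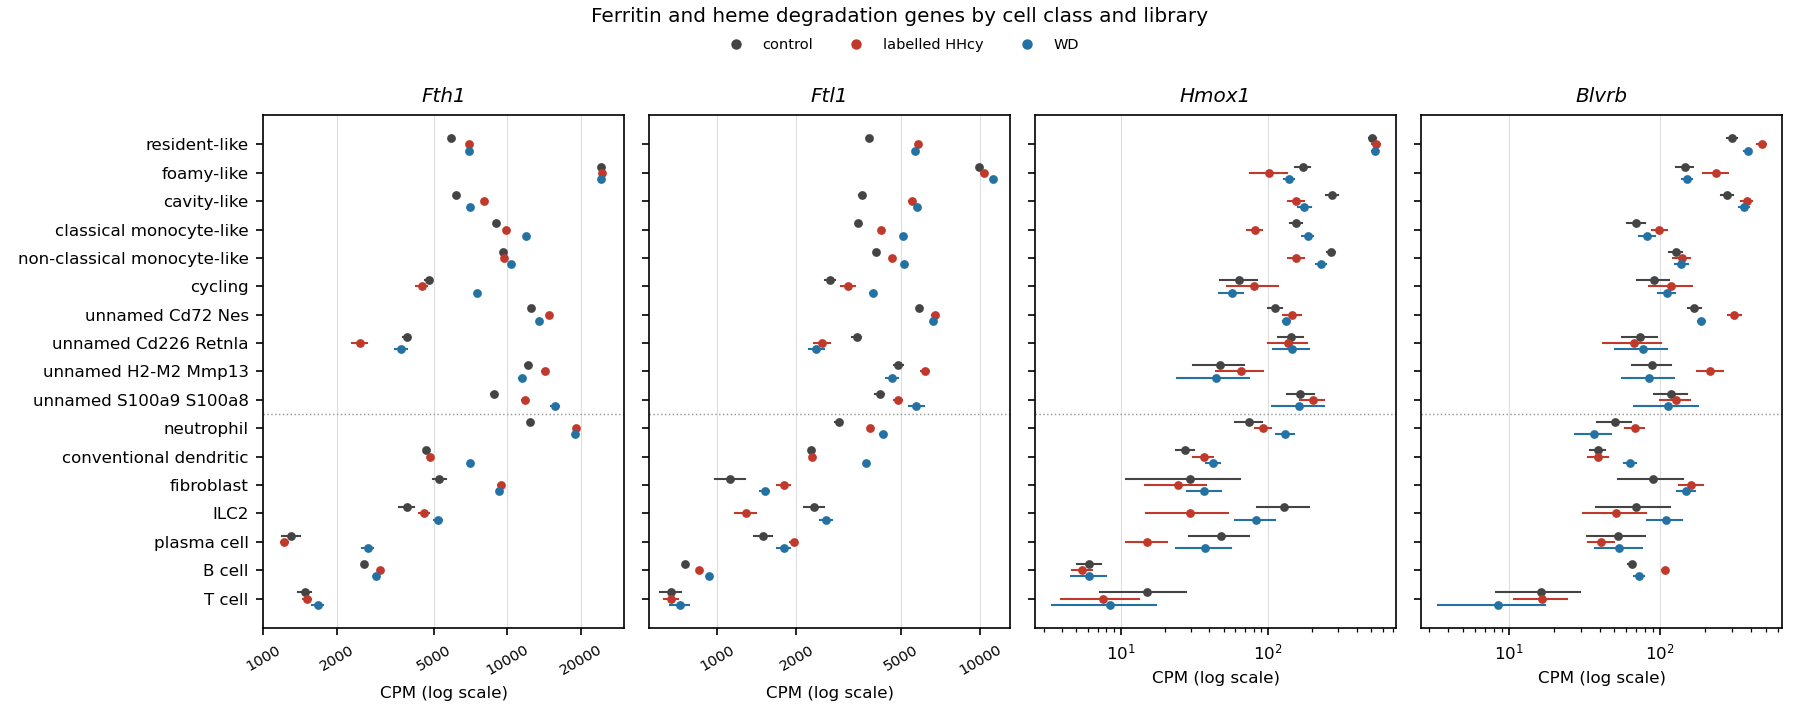
Levels of Fth1, Ftl1, Hmox1 and Blvrb in CPM on a log axis, by cell class and by macrophage and monocyte subset, 1 point per library with exact 95% Poisson intervals. Fth1 was highest in the foamy-like subset (24262, 24390 and 24072 CPM) and Hmox1 in the resident-like subset (509, 540 and 534 CPM).

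Fth1, the ferritin heavy chain (19:9980598-9985098, plus strand), which oxidises iron as it enters the shell, was highest in neutrophils among the 8 classes with at least 20 cells in every library. Its level in neutrophils was 12367 (12171–12565), 19037 (18877–19198) and 18878 (18657–19100) CPM. Macrophages and monocytes followed with 10039 (9992–10086), 10088 (10031–10145) and 12742 (12701–12784) CPM. The intervals of these classes did not overlap in any library. Fibroblasts, few in a CD45 sort at 30, 89 and 168 cells, were next at 5253, 9372 and 9233 CPM, followed by conventional dendritic cells at 4621, 4799 and 7033 CPM. B cells held 2585, 2996 and 2888 CPM and T cells 1480, 1510 and 1671 CPM. The order down to B cells was the same in every library, with neighbours overlapping only for dendritic cells and type 2 innate lymphoid cells in the library labelled HHcy. T and plasma cells came last, level in the control library and with plasma cells above T cells under WD.

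Macrophages and monocytes split into 10 sub-clusters, of which 6 were named from their markers. A resident-like subset (Lyve1-type vessel wall macrophages by the marker list) held 449, 348 and 537 cells, and all 9 of its markers were over 2-fold higher in it. A foamy-like subset, lipid-laden macrophages by its list, held 112, 32 and 263 cells and showed 6 of 9 markers. Classical monocyte-like cells numbered 347, 254 and 275, non-classical monocyte-like cells 486, 224 and 412, and cavity-like macrophages, which resemble those of body cavities, 117, 81 and 118. An unnamed sub-cluster led by Cd72, Nes, Apbb2 and Olfml3 held 237, 121 and 782 cells and showed 4 of the 9 foamy markers. A class level mixes these subsets, so fewer cells of a type and less RNA per cell cannot be told apart in it.

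Foamy-like cells had the highest Fth1 of any subset, with nearly the same level in each library. The level was 24262 (24023–24503), 24390 (23945–24840) and 24072 (23928–24216) CPM, against 5858 (5762–5955), 6977 and 6972 CPM in resident-like cells. The ratio of foamy-like to resident-like was 4.14 (4.06–4.22), 3.5 (3.41–3.58) and 3.45 (3.41–3.5). The sub-cluster led by Cd72 came next in the control library and in the library labelled HHcy, at 12442, 14761 and 13476 CPM. Monocyte-like cells lay between these and the resident-like cells, at 8940, 9843 and 11934 CPM in the classical and 9572, 9708 and 10307 CPM in the non-classical subset. The lowest level in every library was in an unnamed sub-cluster led by Cd226, Hr, Aldh1a2 and Retnla, at 3864, 2485 and 3659 CPM.

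Single cells spread widely around these levels. The median macrophage or monocyte held 6137, 7245 and 8062 CPM of Fth1, and the highest cell 71117, 72270 and 92581 CPM. The tenth of cells with the most Fth1 held 45.2%, 38.9% and 41.5% of the class's Fth1 UMIs, while the tenth with the most RNA held 27.0%, 24.8% and 25.9% of all UMIs. Only 10, 2 and 2 cells had no Fth1 UMI. Resident-like cells had medians of 4972, 6537 and 6099 CPM and foamy-like cells 19746, 18252 and 20639 CPM, so the subset levels did not rest on a few cells.

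Ftl1, the ferritin light chain (7:45457944-45459884, minus strand), which helps the iron core form, had another order. It was highest in macrophages and monocytes in every library, at 4619 (4587–4651), 5263 (5222–5304) and 6563 (6533–6593) CPM. Neutrophils followed at 2893, 3804 and 4276 CPM, and B and T cells were lowest at 752, 853 and 930 and at 663, 667 and 717 CPM. Within the macrophages and monocytes, foamy-like cells led again with 9919, 10378 and 11218 CPM. Resident-like cells held 3790, 5815 and 5674 CPM, which put foamy-like cells 2.62, 1.78 and 1.98 times higher. The gap between foamy-like and resident-like cells was thus smaller for the light chain than for the heavy chain in each library.

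The balance of the subunits differed between cell classes. Levels of different genes depend on how well each transcript is captured, so the ratio of Fth1 to Ftl1 UMIs is compared between classes only. Neutrophils had 4.28, 5.00 and 4.41 Fth1 UMIs per Ftl1 UMI, and fibroblasts 4.70, 5.25 and 6.09. Macrophages and monocytes had 2.17, 1.92 and 1.94. Resident-like cells were low at 1.55, 1.20 and 1.23, cavity-like cells had 1.75, 1.46 and 1.23, and foamy-like cells 2.45, 2.35 and 2.15. Plasma cells, 91, 182 and 115 cells, had the lowest ratio of the 8 classes in each library, at 0.875, 0.625 and 1.5. Their median depths were only 1027, 1268 and 1086 UMIs, and 43, 78 and 55 of them held under 1000 UMIs. The other 104 plasma cells of the library labelled HHcy had a median of 22717.5 UMIs, so this ratio rests mainly on the deeper cells there. The subunits together made up 3.42%, 3.48% and 3.53% of all UMIs of foamy-like cells, 1.53%, 2.28% and 2.32% of those of neutrophils, and 0.334%, 0.385% and 0.382% of those of B cells.

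**Figure D2:**
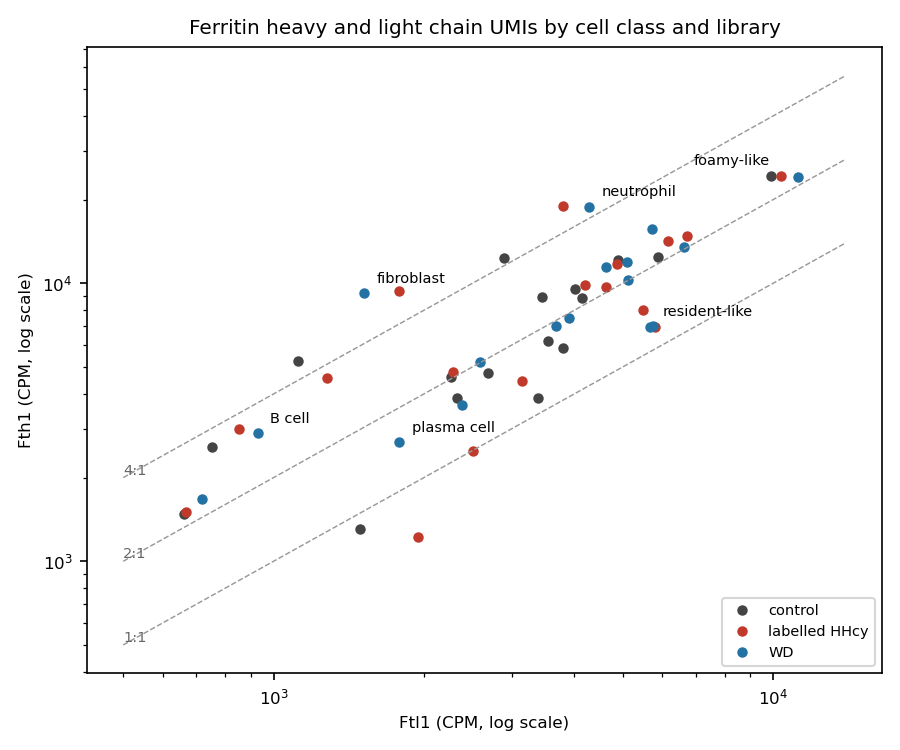
Fth1 against Ftl1 levels in CPM, both axes logarithmic, 1 point per class or subset and library, coloured by library. Neutrophils sit on the heavy-chain side (4.28 to 5.00 Fth1 UMIs per Ftl1 UMI) and resident-like macrophages nearer the light-chain side (1.20 to 1.55).

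Tfrc, the receptor for iron-loaded transferrin (16:32608920-32632794, plus strand), was low, and its order over the classes began with lymphoid cells. T cells held 51.0 (35.3–71.3), 34.4 (25.9–44.9) and 32.7 (21.5–47.5) CPM, from 34, 54 and 27 UMIs. B cells held 34.4 (31.8–37.1), 22.5 (20.9–24.3) and 25.4 (22.2–28.9) CPM. Macrophages and monocytes held 18.5 (16.6–20.7), 19.4 (17–22.0) and 15.3 (13.9–16.8) CPM. Conventional dendritic cells held 14.1, 18.5 and 16.8 CPM, neutrophils 22.0, 9.12 and 12.2 CPM, and plasma cells 16.8, 12.5 and 22.9 CPM. Among neighbouring classes in this order, T and B cells were separated by their intervals only in the library labelled HHcy. Plasmacytoid dendritic cells, 3, 40 and 6 cells and so outside the order, had 419, 188 and 238 CPM.

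Within the macrophages and monocytes, Tfrc was concentrated in resident-like cells. They held 55.7 (46.6–65.9), 63.0 (52.9–74.5) and 47.8 (41.1–55.2) CPM, and 20.3%, 26.1% and 20.5% of them had a Tfrc UMI. Classical monocyte-like cells held 9.68, 5.05 and 5.87 CPM, which put the resident-like subset 5.75 (3.85–8.86), 12.5 (7.41–22.4) and 8.14 (5.06–13.8) times higher. Cavity-like cells, the other subset with much Blvrb, had little Tfrc, at 9.29, 6.04 and 2.80 CPM. Resident-like cells were also shallower than the class as a whole, with medians of 4750, 6122.5 and 6471 UMIs, so their share of cells with a UMI was not raised by depth.

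Slc11a1 (1:74375195-74386062, plus strand), which pumps iron and manganese out of the phagosome, was a myeloid transcript with its highest level in non-classical monocyte-like cells. The class of macrophages and monocytes held 187 (180–193), 154 (147–161) and 144 (140–149) CPM, and neutrophils 130, 110 and 137 (118–157) CPM. The intervals of these classes overlapped in the WD library and were separate in the others. B cells held 5.31, 3.52 and 6.02 CPM, and 4.49%, 2.82% and 4.65% of B cells had a UMI at median depths of 8298, 6570.5 and 7379.5 UMIs, against 61.1%, 60.7% and 60.6% of macrophages and monocytes. These B cell shares are taken as a background, and whether they come from free RNA was not tested.

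Non-classical monocyte-like cells held 343 (324–363), 287 (262–314) and 267 (248–288) CPM of Slc11a1. Foamy-like cells held 211, 225 and 184 CPM and classical monocyte-like cells 189, 108 and 123 CPM. Resident-like cells were low at 114, 132 and 117 CPM, 0.332 (0.290–0.379), 0.461 and 0.436 times the non-classical level. This was the reverse of Tfrc, for which resident-like cells were 2.63, 4.04 and 3.82 times above the non-classical subset.

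**Figure D3:**
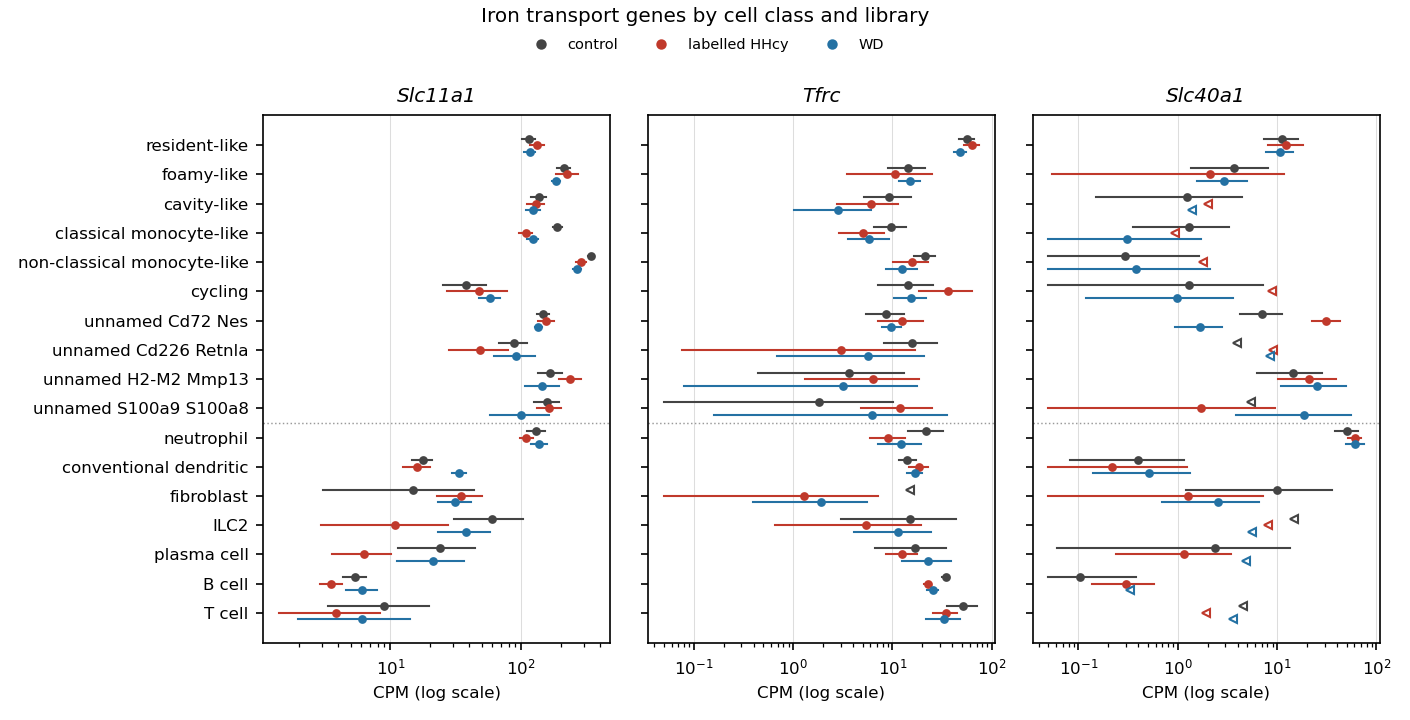
Levels of Tfrc, Slc11a1 and Slc40a1 in CPM on a log axis, by cell class and by macrophage and monocyte subset, 1 point per library with exact 95% Poisson intervals, and open triangles at the limit a count of 0 allows. Tfrc stands out in resident-like cells (47.8 to 63.0 CPM), Slc11a1 in non-classical monocyte-like cells (267 to 343 CPM) and Slc40a1 in neutrophils (50.4 to 60.9 CPM).

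Hmox1 (8:75093621-75100589, plus strand), the inducible heme oxygenase, was highest in macrophages and monocytes in each library. They held 224 (217–231), 198 (190–206) and 200 (195–206) CPM, and no interval of another ordered class reached these. Neutrophils held 74.0 (59.6–90.9), 92.6 (81.7–104) and 131 (113–151) CPM. B cells held 6.14, 5.47 and 6.13 CPM, so macrophages and monocytes were 36.5, 36.2 and 32.7 times higher. A UMI was seen in 55.3%, 59.5% and 57.9% of macrophages and monocytes and in 5.29%, 4.25% and 4.74% of B cells. With every cell thinned to 1000 UMIs these shares were 16.7%, 17.7% and 16.3% and 0.651%, 0.532% and 0.571%.

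Resident-like cells carried the most Hmox1 of any subset, and their level differed little between libraries. It was 509 (481–538), 540 (509–571) and 534 (511–557) CPM. Classical monocyte-like cells held 155, 81.1 and 185 CPM, so resident-like cells were 3.29 (2.96–3.67), 6.65 (5.80–7.64) and 2.88 (2.63–3.16) times higher. Non-classical monocyte-like cells held 268, 155 and 228 CPM and cavity-like cells 273, 155 and 176 CPM. Foamy-like cells, highest in ferritin, held less Hmox1 than resident-like cells, at 173, 102 and 139 CPM, 0.339, 0.189 and 0.260 times the resident-like level. Ferritin and heme oxygenase thus peaked in different subsets in every library.

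A small number of cells held much of the Hmox1. The tenth of macrophages and monocytes with the most held 57.0%, 50.2% and 54.3% of the class's Hmox1 UMIs, and the highest cell had 125, 28 and 151 UMIs. Cells with at least 10 Hmox1 UMIs numbered 67, 44 and 96, of which 34.3%, 61.4% and 51.0% were resident-like. Among the 879, 496 and 1086 cells without a Hmox1 UMI, 14.3%, 15.9% and 13.4% were resident-like. The cells with at least 10 UMIs also held more Blvrb, 263, 431 and 294 against 115, 165 and 147 CPM. These cells held more Ftl1, 7616, 7224 and 8319 against 3832, 4355 and 5358 CPM, and more Fth1, 13581, 13385 and 14109 against 9189, 9308 and 11505 CPM. They were deeper, with median depths of 12206, 8663.5 and 13029.5 against 6257, 7158 and 6787 UMIs, and the part of depth and of subset in these differences was not tested.

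Blvrb (7:27447978-27466144, plus strand), which reduces biliverdin and flavins, was also highest in macrophages and monocytes, but with more signal outside them. They held 157 (151–163), 240 (231–249) and 196 (191–201) CPM. Fibroblasts, 30, 89 and 168 cells, were next at 89.4 (53.0–141), 161 (134–192) and 149 (130–169) CPM. B cells held 65.1, 108 and 73.1 CPM, and 34.8%, 48.4% and 39.1% of B cells had a UMI against 10.5%, 12.7% and 7.07% of T cells, whose median depths were 5403, 7198 and 5411 UMIs. The B cell share therefore stood above the T cell share in each library, also in the library where T cells were deeper.

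By subset, Blvrb was highest in resident-like cells, at 298 (276–321), 469 (441–499) and 380 (361–400) CPM. Cavity-like cells were close at 279, 374 and 359 CPM, 0.936, 0.797 and 0.943 times the resident-like level. Classical monocyte-like cells held 69.7, 99.1 and 82.5 CPM, so resident-like cells were 4.28, 4.73 and 4.61 times higher. Foamy-like cells were intermediate at 145, 234 and 152 CPM. Resident-like cells therefore led for both heme degradation members, whereas cavity-like cells came close to them for Blvrb only.

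Slc40a1, ferroportin (1:45908068-45926523, minus strand), was highest in neutrophils and sparse in macrophages. Neutrophils held 50.4 (38.7–64.7), 60.3 (51.6–70.0) and 60.9 (48.9–74.8) CPM from 62, 172 and 90 UMIs, with a UMI in 23.0%, 25.3% and 22.1% of cells. Macrophages and monocytes held 3.90 (3.03–4.94), 6.60 (5.22–8.22) and 3.0 (2.39–3.71) CPM from 68, 79 and 84 UMIs, with a UMI in 2.24%, 2.94% and 2.37% of cells. That was 0.0773, 0.109 and 0.0492 times the neutrophil level. T cells had no UMI in 95, 165 and 99 cells, a count that limits the share of T cells with a captured UMI to 3.16%, 1.82% and 3.03% and sets no limit on cells expressing the gene. B cells had 2, 9 and 0 UMIs. In the WD library, 0 of 1054 B cells allows up to 0.285% with a captured UMI.

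The neutrophils held 4 clusters, which differed in Fth1. The largest cluster, led by Cstdc4, Stfa2l1, G0s2 and Retnlg, held 103, 334 and 227 cells, with Slc40a1 at 60.9, 73.0 and 87.4 CPM and Fth1 at 19277, 24962 and 25062 CPM. A cluster led by Ltf, Ngp and Camp, genes of neutrophil granule proteins, held 57, 73 and 36 cells. Its Slc40a1 was at 34.0, 45.4 and 21.0 CPM and its Fth1 at 6857, 6932 and 7970 CPM. A cluster led by Camp, Fcnb and Ltf, 27, 9 and 14 cells, had the lowest Fth1, at 2760, 545 and 2588 CPM, with Slc40a1 at 55.9, 53.4 and 26.7 CPM from 12, 5 and 3 UMIs. A cluster led by Stfa2l1, Asprv1 and Acod1, 22, 27 and 17 cells, had Fth1 at 16680, 14987 and 15271 CPM, with Slc40a1 at 50.4, 19.4 and 11.3 CPM from 11, 6 and 2 UMIs. In the control library the Slc40a1 intervals of all 4 clusters overlapped, while those of Fth1 did not. In the library labelled HHcy and under WD, Slc40a1 in the largest cluster was above the cluster led by Stfa2l1, Asprv1 and Acod1, with separate intervals. With so few UMIs in the small clusters, whether Slc40a1 follows Fth1 over the clusters cannot be told. The largest cluster made up 49.3%, 75.4% and 77.2% of the neutrophils. Within it Fth1 and Slc40a1 were also higher in the library labelled HHcy and under WD than in the control library, although the Slc40a1 intervals overlapped.

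Among macrophages and monocytes, the few Slc40a1 UMIs lay mostly in resident-like cells and single other cells. Resident-like cells held 11.2 (7.39–16.3), 12.4 (8.18–18.1) and 10.8 (7.72–14.6) CPM from 27, 27 and 41 UMIs. Classical monocyte-like cells had 4, 0 and 1 UMIs and non-classical monocyte-like cells 1, 0 and 1. An unnamed sub-cluster led by H2-M2, Mmp13, Dnase1l3 and Cadm1 held 14.5, 21.1 and 25.2 CPM, from 8, 10 and 8 UMIs. A Slc40a1 UMI was seen in 16.0%, 13.7% and 22.2% of its 50, 51 and 27 cells, against 4.45%, 5.75% and 5.77% of resident-like cells. The sub-cluster led by Cd72 held 19, 40 and 15 UMIs, but its 3 richest cells held 89.5%, 85% and 53.3% of them. Of the 44, 36 and 61 macrophages and monocytes with a Slc40a1 UMI, 45.5%, 55.6% and 50.8% were resident-like, against 22.3%, 27.6% and 20.1% of the rest. Among the named subsets, ferroportin was thus highest in the same one as Tfrc, Hmox1 and Blvrb, at a level resting on few UMIs. The sub-cluster led by H2-M2 was above that level in every library.

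The comparison of homocysteine with control asked how the aortic immune cells of the library labelled HHcy differed, and its directions carry the doubt about that label given with Apoe. In macrophages and monocytes, 2 of the 7 members were past 1.5-fold, Blvrb and Slc40a1, both higher, while 8.89% of 11850 genes with at least 30 UMIs were past it in either direction, 4.11% higher and 4.78% lower. The log2 ratio of Blvrb was 0.61 (0.53–0.68), from 157 to 240 CPM. That of Slc40a1 was 0.76 (0.27–1.25), from 3.90 to 6.60 CPM, and it was -0.15 without the cells holding at least 3 UMIs of neutrophil markers. Ftl1 was slightly higher, at 0.19 (0.17–0.20), and Fth1 was level, at 0.01 (-0.00–0.02). Hmox1 and Slc11a1 were lower, at -0.18 (-0.25–-0.10) and -0.27 (-0.36–-0.19), and Tfrc had an interval across 0, at 0.07 (-0.18–0.31). Without the cells with neutrophil marker UMIs, Slc11a1 was at 0.01. The median member was at 0.07 and the median of all genes at -0.04.

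Values of other cells moved with this comparison. The summed level of the 10 neutrophil markers in macrophages and monocytes was 299, 670 and 330 CPM, with Ly6g alone at 0 in the control library. The 7 erythroid markers summed to 19.6, 203 and 14.3 CPM, and in cavity-like cells of the library labelled HHcy they summed to 1562 CPM. An erythroid marker UMI was seen in 10.2%, 8.41% and 11.2% of macrophages and monocytes. The higher sum thus did not come with a higher share of cells. Cells with at least 3 neutrophil marker UMIs made up 24.8%, 55.2% and 33.0% of macrophages and monocytes and were deeper than the rest. Within the library labelled HHcy, the 185 cells with at least 10 Apoe UMIs had 356 (329–384) CPM of Blvrb and 317 (292–344) CPM of Hmox1, against 218 (209–228) and 177 (169–185) CPM in the other 1040 cells. Of those 185 cells 56.8% were resident-like, against 23.4% of the others. With such cells left out in every library, the Blvrb ratio was 0.47 and the Hmox1 ratio -0.34.

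By subset, Hmox1 was lower in monocyte-like, cavity-like and foamy-like cells, level in resident-like cells and higher in the sub-cluster led by Cd72. Ftl1 and Blvrb were higher in both resident-like and cavity-like cells. The resident-like log2 ratio was 0.66 (0.52–0.80) for Blvrb, 0.62 (0.58–0.66) for Ftl1, 0.25 (0.22–0.29) for Fth1 and 0.08 (-0.03–0.20) for Hmox1. Over the alternatives the resident-like Blvrb ratio ranged from 0.39 to 0.69, so it did not stay past 1.5-fold throughout. In cavity-like cells the log2 ratio was 0.42 (0.24–0.61) for Blvrb, 0.64 (0.59–0.69) for Ftl1 and 0.37 (0.34–0.41) for Fth1. The sub-cluster led by Cd72 gave Hmox1 0.38 (0.11–0.65), Blvrb 0.87 (0.67–1.07) and Slc40a1 2.13 (1.31–3.0), which were -0.73, 0.14 and -1.02 after thinning. In classical monocyte-like cells Hmox1 was at -0.93 (-1.15–-0.71), and in non-classical monocyte-like cells at -0.79 (-1.0–-0.59). Cavity-like cells gave -0.82 (-1.05–-0.58) and foamy-like cells -0.76 (-1.23–-0.31), the latter from 48 against 280 UMIs. The classical value was -0.06 with finer sub-clusters, while over the alternatives run the non-classical value ranged from -0.84 to -0.63, the cavity-like value from -0.82 to -0.26 and the foamy-like value from -0.87 to -0.23. In foamy-like cells Fth1 was level at 0.01 (-0.02–0.04), although only 32 such cells were in the library labelled HHcy. Over the alternatives Fth1 in foamy-like cells ranged from -0.33 to 0.12. Blvrb was higher there by 0.69 (0.35–1.02), but at -0.12 after thinning and at -0.08 without its 3 richest cells. Classical monocyte-like cells had Blvrb at 0.51 (0.25–0.77), and at -0.13 after thinning. Slc11a1 was lower in classical monocyte-like cells, at -0.81 (-1.01–-0.62) with a range of -0.81 to -0.45, and it was at 0.22 (-0.02–0.46) in resident-like cells.

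Outside the macrophages, neutrophils of the library labelled HHcy had more Fth1, at 0.62 (0.60–0.65), and less Tfrc, at -1.27 (-2.10–-0.44) from 26 against 27 UMIs. These were the 2 of 7 members past 1.5-fold, where 30% of 6608 genes were, 5.66% higher and 24.3% lower. A count this near the background is no result about the members. The Tfrc ratio ranged from -2.11 to -0.29 over the alternatives. Median-ratio scaling moved all neutrophil genes of this comparison by 0.24, which gave Fth1 0.87. Within the largest neutrophil cluster alone Fth1 was at 0.37, and with doublets kept at 0.24. B cells had Blvrb higher at 0.72 (0.63–0.82) and Tfrc lower at -0.61 (-0.77–-0.45), and Slc11a1 was at -0.59 (-1.0–-0.18), from 5.31 to 3.52 CPM. The B cell Slc11a1 level was taken above as a background of untested source, so its ratio is not read as a change in B cells. These were the 3 of 6 members past the fold in B cells, where 14.5% of 11805 genes were past 1.5-fold, 5.47% higher and 9.04% lower. Over the alternatives Blvrb ranged from 0.55 to 0.90, Tfrc from -0.75 to -0.54 and Slc11a1 from -1.06 to -0.043, so each of the 3 fell short of 1.5-fold under at least 1 alternative. None of 6 members passed it in conventional dendritic cells, where 11% of 10289 genes did, 6.25% higher and 4.7% lower.

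The comparison of western diet with control used the same control library. No member of 7 was past 1.5-fold in macrophages and monocytes, where 9.96% of 12455 genes were, 5.14% higher and 4.82% lower. Ferritin was higher, with Ftl1 at 0.51 (0.49–0.52), from 4619 to 6563 CPM, and Fth1 at 0.34 (0.34–0.35), from 10039 to 12742 CPM. Blvrb was at 0.32 (0.25–0.38). Slc11a1 was lower at -0.37 (-0.44–-0.30), Tfrc at -0.28 (-0.49–-0.06), ranging from -0.39 to -0.12 over the alternatives, and Hmox1 at -0.16 (-0.22–-0.10), while Slc40a1, at -0.38 (-0.86–0.10), had an interval across 0. The median member was at -0.16 and the median of all genes at -0.01. Foamy-like cells were 5.69% of macrophages and monocytes in the control library and 10.2% in the WD library, and the sub-cluster led by Cd72 was 12% and 30.3%. With both libraries given the same mix of sub-clusters, Fth1 was at 0.15, Ftl1 at 0.32 and Hmox1 at 0.02. The Blvrb ratio was 0.12 after thinning.

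Within subsets, the light chain was higher under the diet in each of the 5 named subsets compared, but not in every unnamed one. Ftl1 was higher in the sub-cluster led by Cd72, by 0.17. It was lower in the sub-cluster led by Cd226, at -0.51 with a range of -0.57 to -0.09 over the alternatives. In cavity-like cells Ftl1 was higher by 0.70 (0.65–0.74), in resident-like cells by 0.58 (0.55–0.62), in classical monocyte-like cells by 0.57 (0.53–0.60) in non-classical monocyte-like cells by 0.35 and in foamy-like cells by 0.18. Fth1 was at 0.25 (0.22–0.28) in resident-like, 0.42 (0.39–0.44) in classical monocyte-like and -0.01 (-0.03–0.01) in foamy-like cells. Hmox1 was lower in cavity-like cells, at -0.63 (-0.84–-0.43) and higher in classical monocyte-like cells by 0.26 (0.09–0.44), with up to 0.65 under an alternative, and at 0.07 (-0.03–0.17) in resident-like cells. It was also lower in foamy-like cells, at -0.32 (-0.52–-0.11) with a range of -1.49 to -0.15 over the alternatives, and in non-classical monocyte-like cells, at -0.23 (-0.38–-0.08) with a range of -0.54 to -0.22. The sub-cluster led by Cd72 was at 0.25 (0.07–0.44), and at -0.02 after thinning. Blvrb was higher in resident-like cells by 0.35 (0.22–0.48), with a range of 0.07 to 0.40 over the alternatives, and in cavity-like cells by 0.36 (0.19–0.53), though at -0.11 there after thinning. Tfrc was lower in non-classical monocyte-like cells, at -0.76 (-1.40–-0.14), and in cavity-like cells, at -1.73 (-3.38–-0.28), the latter from 6 against 15 UMIs.

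Conventional dendritic cells had the most members past 1.5-fold under the diet, 5 of the 6 counted, all higher, where 13.6% of 10615 genes were past it, 6.42% higher and 7.17% lower. Fth1 was higher by 0.61 (0.59–0.63), Ftl1 by 0.70 (0.67–0.73), Hmox1 by 0.63 (0.37–0.89), Blvrb by 0.71 (0.50–0.92) and Slc11a1 by 0.92 (0.61–1.23). The 18 macrophage and monocyte markers summed to 2975, 2953 and 4738 CPM in these dendritic cells, higher under WD, with none at 0 in any library, and their part in the result was not tested. Slc11a1 was at -0.12 after thinning, and over the alternatives Fth1 ranged from 0.28 to 0.62, Hmox1 from 0.27 to 0.89 and Blvrb from 0.37 to 1.40.

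Neutrophils under the diet had Fth1 higher by 0.61 (0.58–0.64), Hmox1 by 0.83 (0.46–1.20) and Ftl1 by 0.56 (0.50–0.62). Of their 7 members 2 were past 1.5-fold and higher, Fth1 and Hmox1, and 1 was lower, Tfrc, where 17.9% of 5891 genes were past it, 5.84% higher and 12.1% lower. The Tfrc ratio was -0.85 (-1.80–0.06), from 18 against 27 UMIs, with an interval across 0 and a range of -1.48 to -0.36 over the alternatives. The Hmox1 ratio ranged from 0.43 to 1.47. In the largest neutrophil cluster alone Fth1 was at 0.38, and its lowest value over the alternatives was 0.32. None of 6 members in B cells passed 1.5-fold, where 7.96% of 11122 genes did, 3.46% higher and 4.5% lower.

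**Figure D4:**
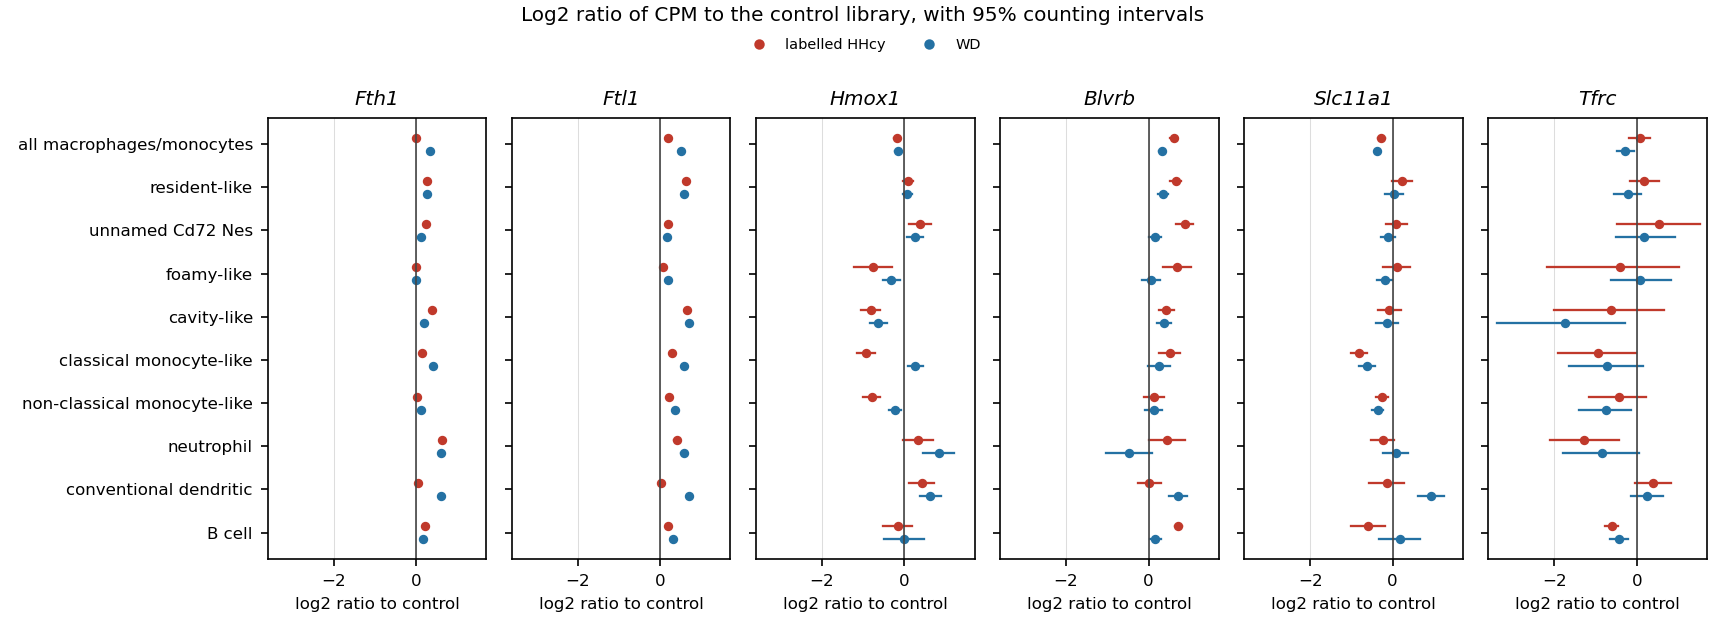
Log2 ratios of the library labelled HHcy and of the WD library to the shared control library for 6 members (Slc40a1, with few UMIs, is not drawn), by class and macrophage or monocyte subset, with exact conditional binomial 95% intervals and a line at 0. In resident-like macrophages Ftl1 lies at 0.62 and 0.58 while Hmox1 lies at 0.08 and 0.07.

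The wider list held 59 genes of iron and heme handling. In macrophages and monocytes of the library labelled HHcy, 7 of the 50 counted were past 1.5-fold and higher and none was lower, beside 4.11% higher and 4.78% lower among all 11850 genes. They were Lcn2, a siderophore-binding protein (3.14, from 4.19 to 37.0 CPM), Hp, which binds free haemoglobin (0.88, from 182 to 336 CPM), and Ltf, lactoferrin (0.83, from 3.90 to 6.93 CPM). The others were Trf, transferrin (0.62, from 425 to 654 CPM), the metal transporter gene Slc39a8 (0.77, -0.08–1.64), Slc40a1 and Blvrb. Lcn2 and Ltf were among the leading genes of neutrophil clusters, and neutrophil markers were higher in the same class. Hp was among the leading genes of the classical monocyte-like subset. The part of neutrophil RNA and of the subset mix in these ratios was not tested. By role, 4 of 9 uptake genes, 1 of 4 genes of heme and haemoglobin uptake, 1 of 2 export genes and 1 of 4 heme degradation genes were past it, but none of 11 heme synthesis genes, 2 heme transport genes, 7 regulators, 6 iron-sulfur cluster genes or 5 storage genes. These role groups are small, and the same 4.11% is the background for each.

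In the WD library, 4 of 51 list genes were past 1.5-fold and higher and none was lower, beside 5.14% higher and 4.82% lower among all 12455 genes. A share this near the background is no result about the list. The 4 genes, each listed under uptake, were Steap4, an iron reductase (2.39, 1.05–4.08, from 5 to 42 UMIs), Slc39a8 (0.90, 0.20–1.65), Lcn2 (0.69, 0.29–1.1) and the metal transporter gene Slc39a14 (0.59, 0.35–0.83). The median log2 ratio of the list was -0.03 for the library labelled HHcy and 0.02 for WD. The haemoglobin scavenger receptor gene Cd163 was at 202, 292 and 208 CPM, and Ncoa4, whose protein delivers ferritin to lysosomes, was at 40.1, 47.2 and 47.0 CPM. Nfe2l2, which encodes the activator NRF2 of Hmox1 and ferritin genes, was at 485, 371 and 367 CPM, and Bach1, their repressor, at 190, 167 and 170 CPM. Hamp, the gene of hepcidin, which triggers the breakdown of ferroportin, had 3, 5 and 3 UMIs, and Ftmt, mitochondrial ferritin, had none.

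Across 17 classes and subsets, each a mean of the 3 libraries, the genes most like each member were found among 5905 genes by Pearson's r of log2(CPM + 1). The units share libraries and differ in depth, so r is a description. For Fth1 they were Gabarap (0.91), Wsb2 (0.89) and Tnfaip2 (0.88), and for Ftl1 they were Ftl1-ps1 (0.97), Gdf15 (0.95) and Atp6v0b (0.95). Ftl1-ps1 is named as a pseudogene copy of Ftl1, and reads could be split between them. It was at 70.1, 53.7 and 73.9 CPM in macrophages and monocytes. For Hmox1 the genes were Zfand5 (0.91), Csf1r (0.90) and Zeb2 (0.90), for Blvrb they were Ly96 (0.90), Pcyox1 (0.88) and Atp6ap1 (0.85), and for Slc11a1 they were Ptpn12, Sat1 and Sirpa (0.94 each). Tfrc was most like Trim33 (0.84), Esco1 (0.77) and Suz12 (0.73), and Slc40a1 most like Selenon (0.86), Ifit3 (0.81) and Ifit1 (0.75). Among the members themselves Ftl1 and Slc11a1 were most alike (0.93), Fth1 and Ftl1 reached 0.83, and Tfrc ran between -0.39 and -0.07 with the other 6.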

How the data were processed

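The deposited files were whole-number UMI count matrices, 1 per library, made with 10x Genomics 3′ v3 chemistry per the labels' protocols. Cell Ranger 4.0.0 is named per the file headers, and Cell Ranger 2.2.0 with mm10 per the submitters' processing notes. Barcodes with at least 200 genes and at most 10% mitochondrial UMIs were kept (6038, 8155 and 6710), and barcodes with markers of several lineages (10.5%, 20.8% and 20.0%) were left out as likely doublets. Cells of the 3 libraries were clustered together (2000 variable genes without the iron list, 30 principal components, 20 neighbours, Leiden resolution 1, and 0.5 for sub-clusters) with Python 3.11.15, NumPy 2.4.6, SciPy 1.17.1, scikit-learn 1.9.0 and leidenalg 0.10.2. Clusters were named from fixed marker lists, and 8.03%, 5.31% and 9.09% of cells stayed unnamed. Depths were 66789257, 105180370 and 93164076 UMIs per library.

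Counts were summed per class and library. Levels have exact Poisson intervals, log2 ratios exact conditional binomial intervals and shares exact Clopper-Pearson intervals, all at 95% and all for counting error only. A share of 0 allows up to 3 counts of the total. With 1 library per group no test was run, and the computations were tested on simulated data. Ratios were computed for the 4 classes with at least 100 cells and the 7 subsets with at least 30 cells in every library. Genes were counted as past 1.5-fold with at least 30 UMIs over both libraries. Named genes were the 7 members, list genes past 1.5-fold in macrophages and monocytes, and the 3 genes most like each member among those with a mean of at least 20 CPM. The members and lists were chosen with earlier results of these data known. Gene positions come from GENCODE vM21 (GRCm38). Alternatives changed the mitochondrial limit, doublets, resolution, naming, joint clustering, scaling, depth, variable genes, subset mix, cells high in Apoe, the UMI minimum and the fold.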

Additional observations from a re-analysis of the deposited data

How the results depend on the processing

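With 1 library per group, intervals cover counting error only and say nothing of the spread between animals. No paired analysis was possible because the labels carry no replicate numbers. Leaving out a replicate was not possible either, and 7 Slc40a1 ratios have no value because a sum is 0. Slc40a1 and Tfrc rest on few UMIs in most classes and subsets, and thinning also turned ratios of Blvrb, Slc11a1, Hmox1 and Ftl1 given below. Among the 4 classes compared, macrophages and monocytes were the highest for Ftl1, Hmox1 and Blvrb under all 9 alternatives that bear on it, and for Slc11a1 under 8 of 9. They ranked 2nd for Fth1 and Slc40a1 under all 9, and for Tfrc under 6 of 9 and 3rd under the others. Library by library the Tfrc rank varied, since neutrophils were above them in the control library (22.0 against 18.5 CPM). Conventional dendritic cells were above them under WD (16.8 against 15.3 CPM), and the intervals overlapped in both cases.

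In macrophages and monocytes, 151 ratios and counts stayed within counting error (a count within 1.5 times), 54 moved further and 3 changed direction. For the library labelled HHcy against control, Fth1 was 0.041 and Ftl1 0.22 with median-ratio scaling, Fth1 -0.017 and Ftl1 0.16 with doublets kept, Fth1 0.021 with cells named by own markers, and Fth1 0.026 with each library clustered alone. After thinning to 1000 UMIs, Fth1 was 0.073, Ftl1 0.34, Slc40a1 0.22, Slc11a1 -0.16 and Blvrb 0.44. With the same mix of sub-clusters, Fth1 was 0.11, Ftl1 0.27 and Hmox1 -0.26. Without cells of at least 10 Apoe UMIs, Fth1 was 0.049, Hmox1 -0.34 and Blvrb 0.47. The alternatives that left out cells by erythroid markers, neutrophil markers or most UMIs of a gene, and the largest neutrophil cluster alone, were chosen after seeing the data. Without cells of at least 3 neutrophil marker UMIs, Fth1 was 0.036, Ftl1 0.27, Hmox1 -0.089, Slc40a1 -0.15, Slc11a1 0.011 and Tfrc 0.55. Without the 3 richest cells, Fth1 was -0.0059 and Hmox1 -0.10.

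For WD against control, Fth1 was 0.37 and Ftl1 0.53 with median-ratio scaling, 0.32 and 0.49 at 20% mitochondrial UMIs, 0.31 and 0.48 with doublets kept, 0.36 and 0.49 without cells of neutrophil marker UMIs (Hmox1 -0.38 there), 0.33 and 0.48 without cells of erythroid marker UMIs, and 0.37 and 0.53 without the 3 richest cells. Fth1 was 0.33 at resolution 2, 0.33 named by own markers (Hmox1 -0.093 there), 0.32 with libraries clustered alone, 0.33 with the iron list among the variable genes and 0.35 without cells high in Apoe. After thinning, Fth1 was 0.39, Ftl1 0.58, Hmox1 -0.24 and Blvrb 0.12. With the same mix of sub-clusters, Fth1 was 0.15, Ftl1 0.32, Hmox1 0.017 and Slc11a1 -0.28. Of the wider list, the count of higher genes fell from 7 to 1 at 2-fold for the library labelled HHcy, and from 4 to 1 at 2-fold and to 2 at 100 UMIs for WD. At 10 UMIs the count of lower genes was 1 in each.

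In the other classes and subsets, 688 of 877 ratios stayed within counting error, 172 moved and 17 changed direction. After thinning, in the library labelled HHcy against control, the sub-cluster led by Cd72 gave Hmox1 -0.73 and Slc40a1 -1.02, the non-classical subset Slc11a1 0.039, the classical subset Blvrb -0.13, foamy-like cells Blvrb -0.12, and the sub-cluster led by Cd226 Ftl1 0.046 and Slc11a1 0.91. For WD, thinning gave dendritic cells Slc11a1 -0.12, the sub-cluster led by Cd72 Hmox1 -0.024, foamy-like cells Slc11a1 0.14 and cavity-like cells Blvrb -0.11. Without the 3 richest cells, foamy-like cells of the library labelled HHcy gave Ftl1 -0.12 and Blvrb -0.075, dendritic cells Hmox1 -0.25, and the sub-cluster led by Cd72 under WD Slc40a1 0.069. Dendritic cells of the library labelled HHcy gave Hmox1 -0.49 with libraries clustered alone and Fth1 -0.0011 without cells of erythroid marker UMIs. Apart from what the settings themselves change, the cause was not tested.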
